A study of Arabidopsis thaliana with 8 samples.

Results

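The plastid sigma factors SIG1 to SIG6 and the plastid protein GUN1 were followed across mRNA libraries of Arabidopsis thaliana floral stems. The members are 7 nuclear genes taken by locus identifier, 6 sigma factor genes and GUN1, of 32833 loci listed in the count tables. All 7 passed the filter on low counts and were among the 21202 genes tested. The stems came from plants of the Columbia-0 accession, labelled msh1 or WT and grown at 22 °C with 16 h of light per day at 120 to 150 µmol. MSH1 is a mismatch repair protein homologue that works in plastids and mitochondria, and the labels do not state the msh1 allele. The 4 groups, with 2 libraries each that the labels call biological replicates, were msh1 TRAP, WT TRAP, msh1 Total and WT Total. TRAP, translating ribosome affinity purification, recovers mRNA with tagged ribosomes. According to the series title, the tagged ribosomal protein was FLAG::RPL18 driven by the MSH1 promoter, so a TRAP library samples ribosomes where that promoter is active, whereas a Total library samples the whole stem. The labels give neither the time of day at which stems were taken nor whether TRAP and Total came from the same plants.

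Plastids transcribe most photosynthesis genes with a bacterial type enzyme, the plastid-encoded RNA polymerase or PEP. Its core is made in the plastid, and it finds promoters through sigma factors that are encoded in the nucleus and imported. SIG2 and SIG6 act mainly in young seedlings, SIG2 on plastid tRNA genes and SIG6 broadly. SIG1 acts on psaA, SIG3 on psbN, SIG4 on ndhF and SIG5 on the blue-light promoter of psbD. SIG5 itself is induced by blue light and stress and carries timing information from the circadian clock into the plastid. GUN1 is a pentatricopeptide repeat protein with a small MutS-related domain (PPR-SMR) that is needed for signalling from impaired plastids to the nucleus.

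Each library held between 7568728 and 13611280 counts in genes. Levels are given as CPM, a count scaled to the size of its library, and a floor of 3 counts stood for 0.207 to 0.385 CPM. The tables held 0 counts for all 133 plastid loci and 152 mitochondrial loci, so the plastid genes that sigma factors act on were not measurable here. MSH1 itself stood at 36.3 and 22.5 CPM in msh1 TRAP and 12.3 and 14.0 CPM in WT TRAP, and in Total at 27.9 and 30.8 CPM in msh1 against 9.27 and 9.61 CPM in WT. It was thus higher in libraries labelled msh1, which does not test the label. Summed over 20 genes, markers of green tissue ran from 45000 to 58400 CPM in msh1 TRAP, 45400 to 54900 CPM in WT TRAP, 43000 to 43200 CPM in msh1 Total and 42600 to 48700 CPM in WT Total. Within these sums the genes went different ways in TRAP, where edgeR called 6 higher and 8 lower in msh1 than in WT, among them the Rubisco small subunit gene RBCS1B at 1.48 and the photosystem I gene PSAD1 at 1.23. The antenna protein genes LHCB2.1 and LHCB2.3 were lower in msh1 in both fractions, at -1.27 and -1.42 in TRAP and -1.92 and -1.83 in Total, calls that held with any library left out. For LHCB2.3, 40.6% of its exon bases overlap a gene on the opposite strand, so its counts are uncertain. Over the 20 markers in Total, edgeR called 3 lower and 0 higher in msh1. Their median log2 fold change there was -0.05, with 10 values above 0 and 10 below. The TRAP counts were 3 higher without msh1 TRAP replicate 2, 4 lower without WT TRAP replicate 2, and 3 higher and 12 lower after a trend with transcript length was removed. The 7 markers of stem fibre and xylem summed to 507 to 552 CPM in msh1 TRAP and 1280 to 1550 CPM in WT TRAP. In Total they summed to 623 to 790 CPM in msh1 and 1040 to 1080 CPM in WT. Not all 7 moved alike: in TRAP 5 were called lower in msh1, and 2 had log2 fold changes above 0. Over all genes tested, 20.8% were called lower in that comparison. In Total edgeR called 0 of the 7, and DESeq2 called 3. For 5 stem epidermis markers the sums were 323 to 390 CPM in msh1 TRAP and 714 to 964 CPM in WT TRAP. The Total sums were 789 to 848 CPM in msh1 and 949 to 1010 CPM in WT. Between msh1 and WT, 4 of these 5 were called lower in TRAP and 0 were called in Total. The 5 floral organ markers summed to 78.5 to 83.4 CPM in msh1 TRAP and 95.2 to 138 CPM in WT TRAP, and to 69.2 to 79.5 CPM in msh1 Total and 107 to 108 CPM in WT Total. Of these, AG and SEP3, which specify floral organs, were called lower in msh1 in both fractions (log2 fold changes of -1.08 and -0.61 in TRAP and -1.03 and -0.79 in Total), and AP3 in TRAP. Of those floral calls 0 were left in TRAP without WT TRAP replicate 2 and 1 without msh1 TRAP replicate 1, and in Total 0 without msh1 Total replicate 1 or either WT Total library and 1 without msh1 Total replicate 2 or WT TRAP replicate 2. Markers of seeds, which are not stem, were present in WT: over 18 genes they summed to 44.9 to 62.4 CPM in msh1 TRAP and 968 to 2100 CPM in WT TRAP, and to 121 to 304 CPM in msh1 Total and 2170 to 2590 CPM in WT Total. Of the 18, 15 passed the filter, and 14 were lower in msh1 in each fraction.

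In these stems SIG5 was 3.97-fold lower in msh1 than in WT in TRAP and 3.71-fold lower in Total. GUN1 was 2.77-fold lower in msh1 in TRAP, and its msh1 effect differed between the fractions. That difference was no longer called when a trend with transcript length was removed. In WT plants, SIG4 and GUN1 had higher levels in TRAP than in Total, calls that rested on few libraries. SIG1, SIG2 and SIG6 passed no test in any of the 5 comparisons. In bulk samples such as these, fewer cells of a type and less RNA per cell cannot be told apart. The comparisons used edgeR's quasi-likelihood test, with p-values adjusted by the Benjamini-Hochberg method over all 21202 genes and a threshold of 0.05.

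Between msh1 TRAP and WT TRAP, 3 of the 7 members were called, all lower in msh1. In this comparison 41.6% of all genes tested were called and 20.8% were called lower. Between msh1 Total and WT Total, SIG5 was the member called, against 3.89% of all genes called and 3.07% called lower. WT TRAP exceeded WT Total in 2 members, GUN1 and SIG4, where 5.07% of genes were called, 3.41% higher and 1.67% lower. In msh1, TRAP was lower than Total in 1 member, SIG3, where 26.2% of genes were called and 12.1% were called lower. The interaction subtracts the Total effect of msh1 from its TRAP effect. It was called negative for GUN1 and SIG4, where 15.6% of genes were called, 6.61% negative and 9.01% positive. Counts of calls in the gene lists are to be read beside these shares. The members' median log2 fold change was -0.34 for msh1 TRAP against WT TRAP and 0.21 for msh1 Total against WT Total, where the medians of all genes tested were -0.02 and 0.00.

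With 2 libraries in each group, libraries that do not overlap are common. For msh1 TRAP against WT TRAP the CPM of the groups did not overlap in 6 of 7 members, 5 lower and 1 higher, as in 67.3% of all genes, 34.8% lower and 32.6% higher. For msh1 Total against WT Total this held in 7 of 7, 2 lower and 5 higher, and in 57.3% of all genes, 29.4% lower and 27.9% higher. For msh1 TRAP against msh1 Total it held in 6 of 7, 4 lower and 2 higher, and in 62.5% of all genes, 32.5% lower and 30.0% higher. For WT TRAP against WT Total it held in 2 of 7, both higher, and in 55.6% of all genes, 32.0% lower and 23.6% higher. Such separation is therefore given below only as a description.

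**Figure D1:**
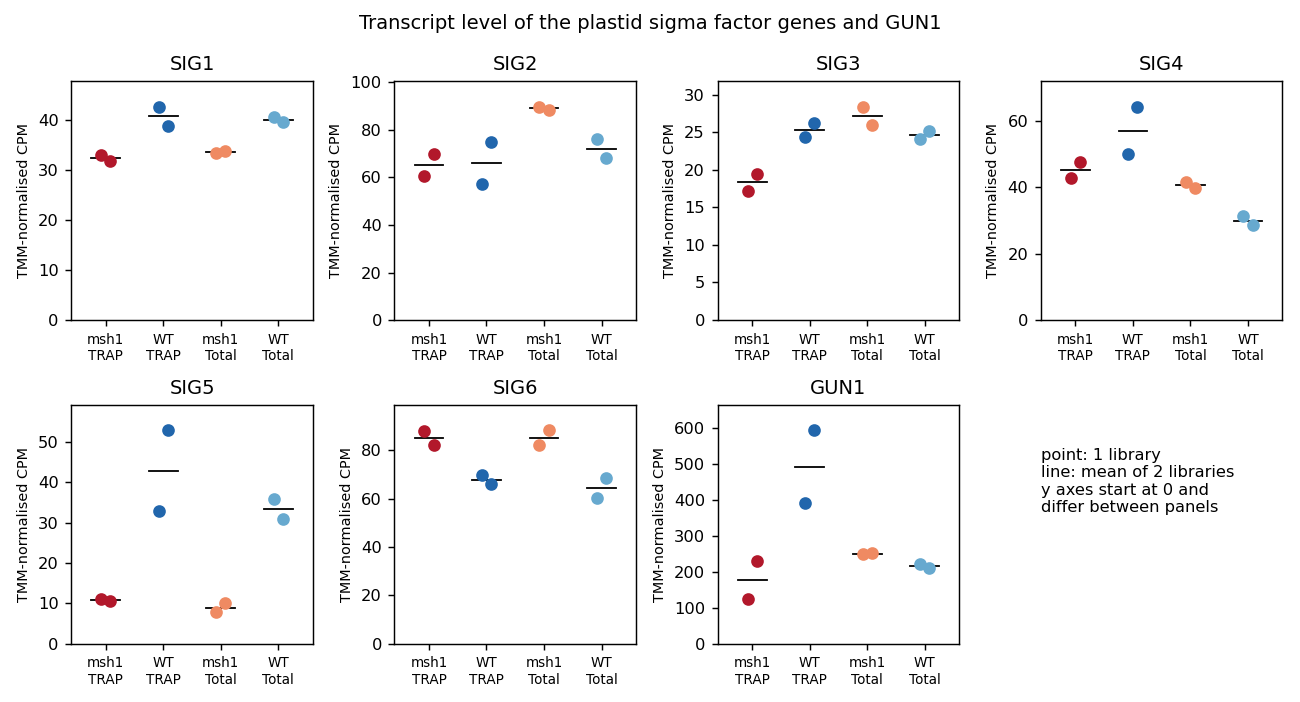
TMM-normalised CPM of each sigma factor gene and GUN1, with the 4 groups on the x axis, a point per library and a line at the mean of 2 libraries. SIG5 stood between 7.75 and 11.1 CPM in the msh1 libraries and between 30.8 and 52.9 CPM in WT, and GUN1 was highest in WT TRAP, at 392 and 593 CPM.

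**Figure D2:**
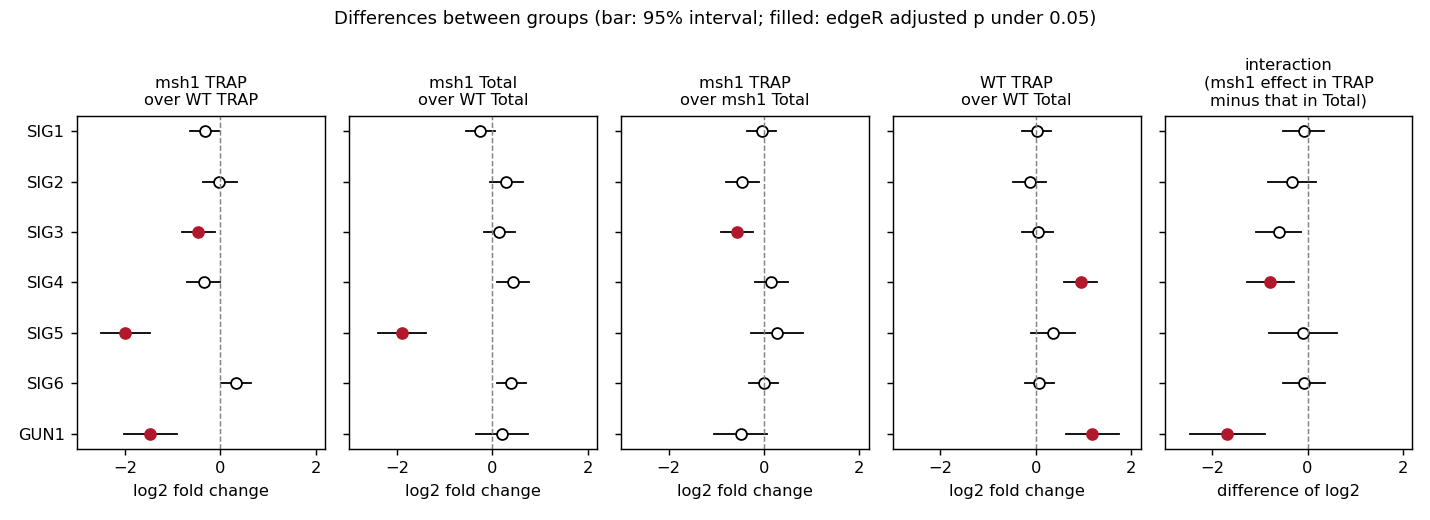
Log2 fold change of each gene in the 5 comparisons, with bars for 95% intervals and filled points where the edgeR adjusted p was under 0.05. SIG5 was lower in msh1 by nearly the same amount in TRAP and Total, -1.99 and -1.89, whereas GUN1 was at -1.47 in TRAP and 0.21 in Total.

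Levels of different genes were compared per kilobase of transcript. GUN1 had the highest mean level in each of the 4 groups, with 53.3 ± 22.3 CPM per kb in msh1 TRAP, 147 ± 42.6 in WT TRAP, 74.9 ± 0.992 in msh1 Total and 64.7 ± 2.15 in WT Total (SD, n = 2). In msh1 TRAP replicate 1, however, GUN1 stood at 37.5 CPM per kb, below SIG6 at 43.0. Among the sigma factors SIG6, SIG2 and SIG4 had the highest mean levels in each group. In the msh1 libraries SIG1 came next, followed by SIG3 and then SIG5. In WT TRAP SIG5, with 15.2 and 24.4 CPM per kb, overlapped SIG1, with 19.4 and 17.6, and in WT Total SIG5 had 16.5 and 14.2 against 18.4 and 17.9 for SIG1.

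The 6 sigma factors together came to 130 and 135 CPM per kb in msh1 TRAP and 142 and 167 in WT TRAP, and to 144 and 145 in msh1 Total and 134 and 130 in WT Total. Within this sum, SIG5 took 3.94 and 3.62% in msh1 TRAP and 10.7 and 14.6% in WT TRAP. In Total it took 2.48 and 3.21% in msh1 and 12.4 and 10.9% in WT. SIG5 thus ranked below SIG3 in every msh1 library and above it in every WT library. SIG6 took 33.1 and 29.8% of the sum in msh1 TRAP and 24.0 and 19.4% in WT TRAP, and 27.9 and 29.7% in msh1 Total and 22.1 and 25.7% in WT Total. SIG4 made up 22.6 and 24.2% in msh1 TRAP and 24.2 and 26.5% in WT TRAP, against 19.8 and 18.8% in msh1 Total and 16.0 and 15.2% in WT Total. A share falls when another member rises, so these shares describe the make-up of the sum and were not tested.

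**Figure D3:**
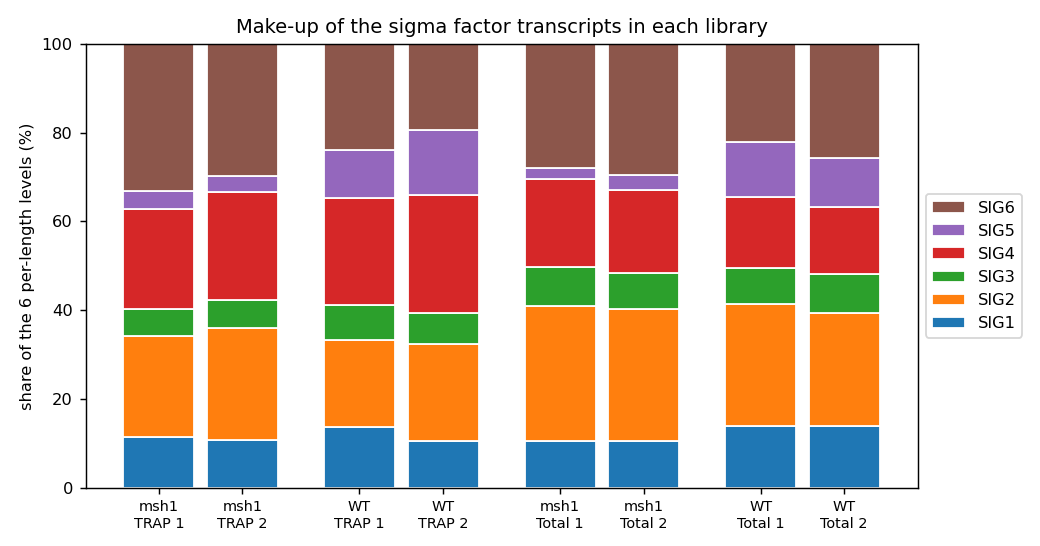
Share of each sigma factor in the summed per-kilobase level of the 6 sigma factor transcripts, as a stacked bar per library on a percent axis. SIG5 took 2.48 to 3.94% in the msh1 libraries and 10.7 to 14.6% in the WT libraries.

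SIG5 (AT5G24120, SIGE in the annotation, TAIR10.1 chr5:8157151-8160343, minus strand) had 11.1 and 10.6 CPM in msh1 TRAP, against 32.8 and 52.9 CPM in WT TRAP. In Total it had 7.75 and 10.1 CPM in msh1, against 35.8 and 30.8 CPM in WT. All 4 msh1 libraries lay below all 4 WT libraries, and WT TRAP replicate 2 was the highest. The log2 fold change of msh1 against WT was -1.99 ± 0.23 in TRAP (SE, edgeR adjusted p = 7.72e-05), 3.97-fold lower. In Total it was -1.89 ± 0.23 (SE, edgeR adjusted p = 0.000582), 3.71-fold lower. The interaction was -0.10, with a 95% interval from -0.81 to 0.62 and an edgeR adjusted p of 0.872, so a difference between the fractions was not detected within that interval. TRAP against Total gave 0.27 in msh1 (interval -0.27 to 0.82) and 0.37 in WT (interval -0.09 to 0.83), and neither passed the test; the WT value ran from 0.04 to 0.67 with a library left out. Genes within 10 percent of SIG5's transcript length of 2165 bases had a median of -0.21 for msh1 against WT in TRAP and -0.03 in Total. Both calls held in each of 15 other settings, with log2 fold changes from -2.28 to -1.57 in TRAP and from -2.10 to -1.71 in Total.

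The morning genes of the circadian clock stood beside SIG5. Of 7 listed genes, 5 were lower in msh1 TRAP than in WT TRAP with a median log2 fold change of -1.24, and 6 were lower in msh1 Total than in WT Total with a median of -2.27. CCA1, a morning-expressed MYB factor of the central loop, had 3.31 and 1.53 CPM in msh1 TRAP against 17.4 and 21.3 CPM in WT TRAP. In Total, CCA1 had 1.96 and 3.71 CPM in msh1 against 23.4 and 22.3 CPM in WT. PRR9, a pseudo-response regulator that represses CCA1, had 2.17 and 1.41 CPM in msh1 TRAP against 13.1 and 12.7 CPM in WT TRAP, and in Total 0.467 and 1.74 CPM in msh1 against 11.9 and 11.6 CPM in WT. For both genes the msh1 and WT libraries did not overlap, as for SIG5. CCA1 changed by -3.01 ± 0.33 in TRAP and -2.99 ± 0.30 in Total, and PRR9 by -2.85 ± 0.37 and -3.35 ± 0.37 (log2 ± SE, msh1 against WT, edgeR adjusted p between 5.58e-05 and 0.000341). LHY, the partner of CCA1, was at -1.24 in TRAP and -2.27 in Total, and LNK1, a coactivator of morning genes, at -0.60 and -1.26, all called. Later-phased PRR7 was at 0.10 in TRAP and 0.05 in Total and passed neither test. Leaving out 1 library at a time left 4 to 5 morning genes called in TRAP and 4 to 6 in Total, with 4 in Total without msh1 Total replicate 1. Removal of the trend with transcript length, described for GUN1, left 3 called in TRAP, with LNK1 at -0.24 (adjusted p = 0.212) and LHY at -0.80 (adjusted p = 0.102) lost, and 6 in Total. The LHY call in TRAP was lost without msh1 TRAP replicate 1 (adjusted p = 0.0712) or WT TRAP replicate 2 (adjusted p = 0.0704).

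Of 6 evening clock genes, 2 were higher and 2 lower in msh1 TRAP than in WT TRAP, with a median of 0.11. The evening-complex genes ELF4 and LUX were higher there, by 1.92 and 0.94 on the log2 scale, and GI and PRR5 were lower, at -1.35 and -1.18, the last not without WT TRAP replicate 2 (adjusted p = 0.0763). Removal of the length trend gave 4 higher and 2 lower. In msh1 Total against WT Total edgeR called 0 of the 6, with a median of 0.26; 4 had an unadjusted p under 0.05 and DESeq2 called 0. The part that clock phase or sampling time has in the SIG5 difference was not tested. Nor was that of the seed, floral organ and LHCB2 marker RNA described above, which was also lower in msh1 than in WT in both fractions. The summed fibre and xylem markers and the summed epidermis markers were also lower in msh1 in both fractions. In Total edgeR called 0 genes of those 2 lists, and their part was not tested either.

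**Figure D4:**
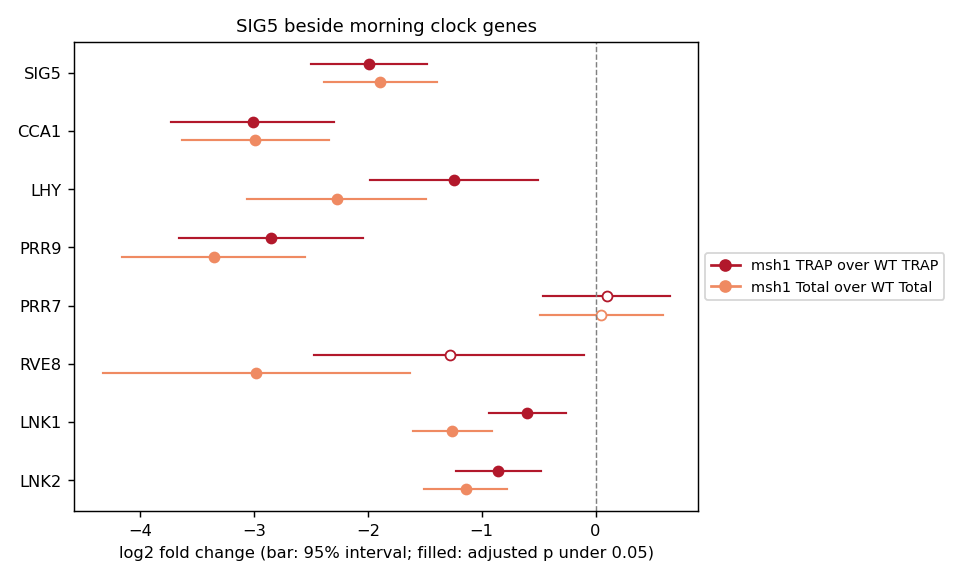
Log2 fold change of msh1 over WT for SIG5 and 7 morning clock genes, in TRAP and in Total, with 95% intervals and filled points where the edgeR adjusted p was under 0.05. SIG5 lay at -1.99 and -1.89, CCA1 at -3.01 and -2.99, and PRR7 at 0.10 and 0.05.

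Regulators of light responses were read beside SIG5 because SIG5 is induced by blue light and HY5 acts on its promoter. Of 10 listed genes, 2 were higher and 3 lower in msh1 TRAP than in WT TRAP, and 1 was lower in msh1 Total than in WT Total. Over all genes tested, 20.8% were called higher and 20.8% lower in TRAP, and 3.07% lower in Total. The TRAP counts were thus near those shares. CRY1, a blue-light receptor, had 115 and 124 CPM in msh1 TRAP against 218 and 219 CPM in WT TRAP, a log2 change of -0.87 ± 0.16 (SE, edgeR adjusted p = 0.00095). In Total CRY1 was at -0.20 (edgeR adjusted p = 0.597). PHYB, a red-light receptor, was at -0.98 in TRAP, and PIF3 and PIF1, factors that phytochromes remove in light, were each at 0.77 there. The PIF3 call was lost without WT TRAP replicate 2 (adjusted p = 0.0995). PIF5 was the gene lower in Total, at -0.69, and its call was lost without any 1 of the 4 Total libraries (adjusted p up to 0.232). With the length trend removed 0 of the 10 were lower in TRAP, and CRY1 was at -0.41 (adjusted p = 0.0613). HY5, a bZIP factor that binds ACGT-containing elements, had 11.6 and 8.95 CPM in msh1 TRAP against 6.42 and 6.08 CPM in WT TRAP, and in Total 4.95 and 8.68 CPM in msh1 against 7.59 and 8.36 CPM in WT, and passed no test.

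The promoters of SIG5 and of the 2 clock genes with the lowest values are shown because these 3 genes fell together in msh1. Each is the 250 bases before the annotated start, read 5′ to 3′ on the gene's strand from the RefSeq genome TAIR10.1, with matches in capitals. Both strands were searched for CACGTG (the G-box), ACGT (the core it contains), AAAATATCT (the evening element), AAAAATCT (the CCA1-binding site) and GATAAG (a light-box core). SIG5 lies at chr5:8160344-8160593 (minus strand), CCA1 at chr2:19245341-19245590 (plus strand) and PRR9 at chr2:19232357-19232606 (plus strand).
SIG5: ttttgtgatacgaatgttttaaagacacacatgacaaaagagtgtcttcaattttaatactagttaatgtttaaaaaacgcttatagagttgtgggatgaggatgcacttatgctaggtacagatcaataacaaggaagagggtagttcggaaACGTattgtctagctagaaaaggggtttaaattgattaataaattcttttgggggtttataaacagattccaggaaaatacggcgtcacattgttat
CCA1: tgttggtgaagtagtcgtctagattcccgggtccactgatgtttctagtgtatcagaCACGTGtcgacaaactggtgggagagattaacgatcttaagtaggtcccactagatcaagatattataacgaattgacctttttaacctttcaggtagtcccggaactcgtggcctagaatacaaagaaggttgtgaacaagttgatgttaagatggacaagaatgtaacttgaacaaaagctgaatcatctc
PRR9: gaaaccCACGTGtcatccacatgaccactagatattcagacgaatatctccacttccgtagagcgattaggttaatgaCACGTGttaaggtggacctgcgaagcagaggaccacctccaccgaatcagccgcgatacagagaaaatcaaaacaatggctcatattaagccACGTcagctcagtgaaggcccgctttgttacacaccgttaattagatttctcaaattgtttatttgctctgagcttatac

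The SIG5 window held a single ACGT, 97 bases before the start, and no match to the other 4 motifs. CCA1 held 1 G-box and PRR9 held 2 with a further ACGT. Of the other morning genes, LHY held 1 G-box, and so did PRR7, which passed neither test between msh1 and WT. RVE8, LNK1 and LNK2 were called lower in msh1 Total than in WT Total and held 0. Among 21201 promoters of the same length, 43.6% held ACGT and 7.1% held CACGTG, so an ACGT is common in such windows. SIG5 has 3 annotated transcripts, and the window lies before the outermost start. No match says only that these letters are not in this window.

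The tested genes whose pattern over the 8 libraries was most like that of SIG5 were the B-box gene BBX16, the B-box gene BBX31 and the cytochrome P450 gene CYP709B2. Their root mean square differences from SIG5, on mean-centred log2 CPM, were 0.24, 0.26 and 0.29, where SIG5 varied about its own mean by 0.99. The search covered 8888 genes with a symbol. BBX16, of the family that includes CONSTANS, was at -1.96 in TRAP and -2.08 in Total for msh1 against WT. CYP709B2 was at -1.96 and -1.48, and BBX31 was at -1.95 in TRAP and, without passing the test, at -2.65 in Total.

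GUN1 (AT2G31400, chr2:13386954-13390854, minus strand) had 125 and 231 CPM in msh1 TRAP against 392 and 593 CPM in WT TRAP. In Total it had 248 and 253 CPM in msh1 against 221 and 211 CPM in WT. WT TRAP was the highest group and msh1 TRAP held the lowest library, while both Total groups lay within a narrow range. The TRAP replicates stood further apart than the Total replicates in both genotypes. The SD was 74.4 CPM in msh1 TRAP and 142 in WT TRAP, against 3.32 in msh1 Total and 7.19 in WT Total. The test pools the spread over the groups, so the SEs and intervals below do not show this difference. The log2 fold change was -1.47 ± 0.26 for msh1 TRAP against WT TRAP (SE, edgeR adjusted p = 0.000863), 2.77-fold lower. For msh1 Total against WT Total it was 0.21 ± 0.25 (SE, edgeR adjusted p = 0.758), with a 95% interval from -0.34 to 0.76. The interaction was -1.68 ± 0.36 (SE, edgeR adjusted p = 0.0108), so the msh1 effect on GUN1 differed between the fractions. WT TRAP exceeded WT Total by 1.19 ± 0.26 (SE, edgeR adjusted p = 0.0212), 2.28-fold, and msh1 TRAP against msh1 Total gave -0.49 ± 0.26 (SE, edgeR adjusted p = 0.174).

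The GUN1 transcript is long, at 3342 bases, and the TRAP comparisons moved with transcript length. Genes within 10 percent of that length, 1177 of them, had median log2 fold changes of -0.55 for msh1 TRAP against WT TRAP, 0.15 for WT TRAP against WT Total and -0.48 for the interaction. With a smooth length trend removed from each library, GUN1 was at -0.90 for msh1 TRAP against WT TRAP (edgeR adjusted p = 0.0296). The WT TRAP against WT Total value became 1.02 (adjusted p = 0.0647) and the interaction became -1.16 (adjusted p = 0.092), and both calls were lost. Without WT TRAP replicate 2, the library highest in GUN1, the interaction was -1.35 (adjusted p = 0.0616) and WT TRAP against WT Total was 0.92 (adjusted p = 0.163). The call of WT TRAP against WT Total was also lost without WT Total replicate 1 (1.22, adjusted p = 0.159) or WT Total replicate 2 (1.16, adjusted p = 0.168). The uncalled value of msh1 TRAP against msh1 Total rested on single libraries, at -0.04 (adjusted p = 0.899) without msh1 TRAP replicate 1 and -1.01 (adjusted p = 0.0123) without msh1 TRAP replicate 2. The lower level in msh1 TRAP than in WT TRAP was called in all 15 other settings, from -2.02 to -0.90.

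Other PPR-SMR genes moved with GUN1 in TRAP. All 7 were lower in msh1 TRAP than in WT TRAP, with a median log2 fold change of -1.0. Between msh1 Total and WT Total edgeR called 0 of 7, with a median of 0.06; 0 had an unadjusted p under 0.05, and DESeq2 also called 0. The interaction was called negative in 5 of 7, with a median of -1.02. That count was 3 without msh1 Total replicate 1, and 2 without msh1 Total replicate 2, WT TRAP replicate 2 or either WT Total library, or with the length trend removed. PAP2, also known as pTAC2 and a component of the plastid transcription machinery, had 30.2 and 28.0 CPM in msh1 TRAP against 70.2 and 111 CPM in WT TRAP, a log2 change of -1.64 ± 0.20 (SE, edgeR adjusted p = 8.61e-05). SOT1, which acts in plastid ribosomal RNA maturation, had 45.4 and 59.1 CPM in msh1 TRAP against 102 and 143 CPM in WT TRAP, at -1.23 ± 0.19 (SE, edgeR adjusted p = 0.000338). SVR7, which supports translation of plastid ATP synthase genes, was at -1.0, and the uncharacterised member AT1G18900 at -1.09. Leaving out 1 library at a time left 5 to 7 of the 7 lower, with 5 without WT TRAP replicate 2. With the length trend removed, 4 of 7 were lower, with a median of -0.53. WT TRAP exceeded WT Total in 3 of 7, with a median of 0.66, but in 0 of 7 without either of the WT Total libraries and in 1 of 7 without WT TRAP replicate 2 or either msh1 Total library. In msh1, TRAP was lower than Total in 4 of 7, a count that was 1 without msh1 Total replicate 2 and 2 without msh1 TRAP replicate 2, msh1 Total replicate 1 or either WT Total library.

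**Figure D5:**
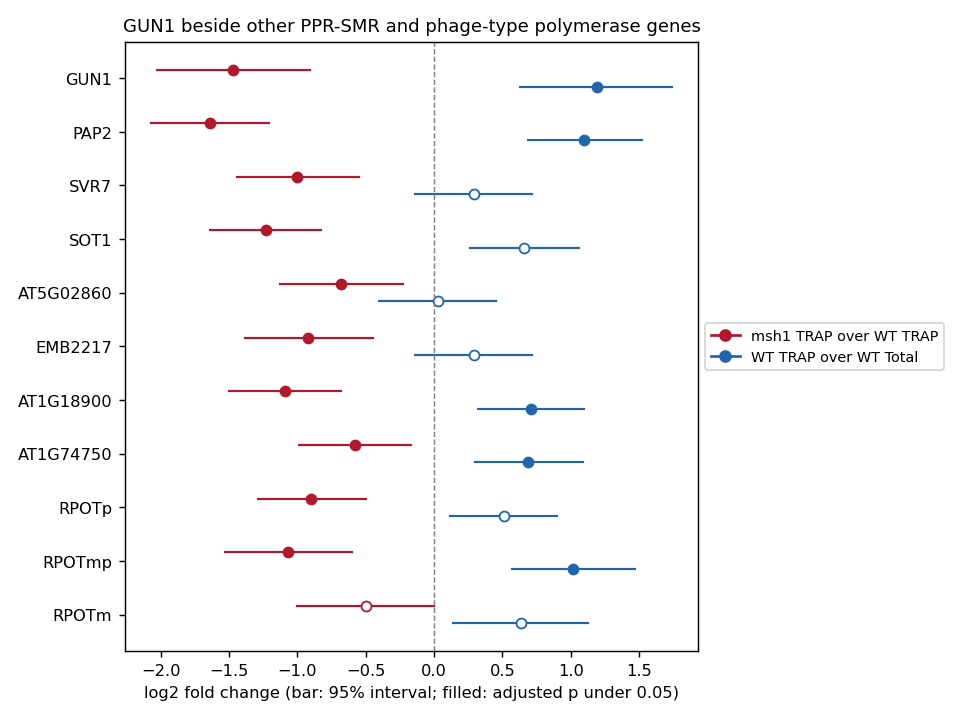
Log2 fold changes of GUN1, 7 other PPR-SMR genes and 3 phage-type RNA polymerase genes for msh1 TRAP over WT TRAP and for WT TRAP over WT Total, with 95% intervals and filled points where the edgeR adjusted p was under 0.05. GUN1 lay at -1.47 and 1.19 and PAP2 at -1.64 and 1.10.

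The genes most like GUN1 over the 8 libraries were UKL5, a uridine kinase-like gene, KEA1, a potassium antiporter of the chloroplast envelope, and cpHSC70-1, a chaperone of the chloroplast stroma. Their root mean square differences were 0.16, 0.17 and 0.18, where GUN1 varied about its own mean by 0.62. KEA1 was at -1.44 for msh1 TRAP against WT TRAP and 1.33 for WT TRAP against WT Total, and cpHSC70-1 was at -1.42 and 1.33. UKL5, at -1.78 and 1.33, passed neither test.

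The wider set of retrograde signalling genes, those that carry or answer plastid signals to the nucleus, was mixed. Of 17 genes listed besides GUN1, 16 were tested, and 2 were higher and 7 lower in msh1 TRAP than in WT TRAP, with a median of -0.41. Without msh1 TRAP replicate 1, 4 were higher, and without WT TRAP replicate 1, 1 was, since the call of EX2 was lost (adjusted p = 0.0797). The 4 genes with the largest changes were plastid chaperones and CHLH. CLPC1, a chaperone of the stromal protease, had 1060 and 1580 CPM in msh1 TRAP against 4630 and 6820 CPM in WT TRAP, a log2 change of -2.11 ± 0.23 (SE, edgeR adjusted p = 6.01e-05). CLPC1 had 1170 and 1190 CPM in msh1 Total against 1240 and 1260 CPM in WT Total. CHLH, also known as GUN5 and a subunit of magnesium chelatase, had 919 and 869 CPM in msh1 TRAP against 2540 and 4360 CPM in WT TRAP, at -1.95 ± 0.24 (SE, edgeR adjusted p = 9.54e-05). The stromal chaperone cpHSC70-2 was at -2.0 there. These values fell with GUN1, and each of the calls held with any library left out and with the length trend removed.

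Other GUN genes did not pass the test between msh1 and WT. HO1, or GUN2, which makes the precursor of the phytochrome chromophore, had 75.4 and 73.4 CPM in msh1 TRAP against 64.4 and 78.3 CPM in WT TRAP, a log2 change of 0.06 (edgeR adjusted p = 0.781). HO1 was at 0.13 in Total. GUN4, which stimulates magnesium chelatase, was at 0.22 in TRAP and -0.54 in Total, but 73% of its exons overlap a gene on the opposite strand, so its counts are uncertain. GLK2, a factor that drives photosynthesis genes, was the gene called in Total, with 20.4 and 25.6 CPM in msh1 against 54.4 and 58.7 CPM in WT, a log2 change of -1.30 ± 0.17 (SE, edgeR adjusted p = 0.000814). GLK2 was also called lower in msh1 in TRAP, at -0.48, a call that rested on few libraries. That value ran from -0.58 to -0.37 with a library left out. WT TRAP exceeded WT Total in 7 of the 16 genes, with a median of 0.11, led by CLPC1 at 2.2 and cpHSC70-2 at 1.84. Without WT Total replicate 2 that count was 2, without WT Total replicate 1 or WT TRAP replicate 2 it was 3, and the calls of CLPC1 and cpHSC70-2 held in each case. In msh1, TRAP against Total gave 4 higher and 2 lower (2 higher and 0 lower without msh1 Total replicate 1, and 4 higher and 0 lower without msh1 Total replicate 2), led by EX2, a plastid protein of the singlet oxygen response, at 1.23.

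SIG4 (AT5G13730, chr5:4429095-4430901, minus strand) had 42.7 and 47.6 CPM in msh1 TRAP against 41.5 and 39.7 CPM in msh1 Total. It had 49.9 and 64.3 CPM in WT TRAP against 31.2 and 28.7 CPM in WT Total. The groups followed the order WT TRAP, msh1 TRAP, msh1 Total and WT Total without overlap, although the neighbours msh1 TRAP and msh1 Total did not differ by the test. WT TRAP exceeded WT Total by a log2 fold change of 0.94 ± 0.16 (SE, edgeR adjusted p = 0.0059), 1.91-fold. In msh1 the same comparison gave 0.15 ± 0.16 (SE, edgeR adjusted p = 0.512), and the interaction was -0.78 ± 0.22 (SE, edgeR adjusted p = 0.035). For msh1 against WT, SIG4 was at -0.34 in TRAP (interval -0.69 to 0.00) and 0.44 in Total (interval 0.10 to 0.78), and neither passed the test after adjustment. The TRAP value passed without WT TRAP replicate 1 (-0.51, adjusted p = 0.0359) and with the length trend removed (-0.56, adjusted p = 0.0152), and was -0.20 without msh1 TRAP replicate 1 and -0.12 without WT TRAP replicate 2. The Total value passed when only the 4 Total libraries were fitted (adjusted p = 0.0234).

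The SIG4 calls rested on few libraries. WT TRAP against WT Total was at 0.80 without WT TRAP replicate 2 (adjusted p = 0.054), 1.00 without WT Total replicate 1 (adjusted p = 0.0758) and 0.88 without WT Total replicate 2 (adjusted p = 0.115). The interaction call was lost without either msh1 Total library (adjusted p = 0.117 and 0.0969), without WT TRAP replicate 2 (adjusted p = 0.135) or without either WT Total library (adjusted p = 0.103 and 0.164), with values from -0.84 to -0.59. SIG4 shares 13.8% of its exon bases with AT5G13720 on the opposite strand, and reads of the overlap cannot be told apart because the preparation does not mark strand. AT5G13720 was at -0.10 for WT TRAP against WT Total (edgeR adjusted p = 0.769) and was called lower in msh1 TRAP against msh1 Total, at -0.55 (adjusted p = 0.0181). Its interaction was -0.45 ± 0.21 (SE, edgeR adjusted p = 0.162), of the same sign as that of SIG4, and the part of its reads in the SIG4 values was not tested. Genes of like length had a median of -0.10 for WT TRAP against WT Total. The genes most like SIG4 were CAF2, which acts in splicing of plastid introns, GSTL2, a glutathione transferase, and PTAC12, listed here as PAP5, each with a root mean square difference of 0.10 where SIG4 varied by 0.35. For WT TRAP against WT Total all 3 were called higher, at 0.88, 0.86 and 0.87.

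SIG3 (AT3G53920, SIGC in the annotation, chr3:19960789-19963980, minus strand) had 17.2 and 19.5 CPM in msh1 TRAP against 24.4 and 26.2 CPM in WT TRAP. In Total it had 28.4 and 26.0 CPM in msh1 against 24.1 and 25.2 CPM in WT. The msh1 TRAP libraries lay below the other 6, which spanned 24.1 to 28.4 CPM. Against msh1 Total, SIG3 was lower in msh1 TRAP, at -0.56 ± 0.16 (log2 ± SE, edgeR adjusted p = 0.0202), and against WT TRAP it was at -0.46 ± 0.16 (SE, edgeR adjusted p = 0.0339). The interaction, at -0.60 ± 0.22 (SE, edgeR adjusted p = 0.0808), did not pass. Genes of like length had a median of -0.17 for msh1 TRAP against msh1 Total and -0.23 for msh1 TRAP against WT TRAP. With the length trend removed, SIG3 was at -0.40 (adjusted p = 0.0815) and -0.24 (adjusted p = 0.273), and neither was called. The msh1 TRAP against WT TRAP call held in 3 of 15 other settings, and of the 8 libraries left out in turn it held only without msh1 TRAP replicate 2. The msh1 TRAP against msh1 Total call was lost without msh1 TRAP replicate 1 (-0.40, adjusted p = 0.0836), msh1 Total replicate 1 (-0.50, adjusted p = 0.135) or msh1 Total replicate 2 (-0.63, adjusted p = 0.0748). For the other comparison the values ran from -0.61 to -0.31 over the libraries left out, with adjusted p up to 0.171.

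The SIG3 promoter is shown because, of the 7 members, it was the one with a match to the evening element, the target of CCA1 and its relatives. The window is chr3:19963981-19964230 (minus strand), read and marked as for SIG5, with reverse-strand matches in capitals as they read here.
SIG3: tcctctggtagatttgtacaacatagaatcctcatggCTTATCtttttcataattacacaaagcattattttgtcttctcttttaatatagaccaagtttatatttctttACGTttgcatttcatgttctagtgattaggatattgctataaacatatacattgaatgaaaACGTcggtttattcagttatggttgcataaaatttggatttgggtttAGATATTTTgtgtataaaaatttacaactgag

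The evening element lay 32 bases before the annotated start, ACGT lay 140 and 79 bases before it, and GATAAG lay 213 bases before it. In all, 2.46% of 21201 promoters held the evening element and 12.6% held GATAAG. SIG4 held 1 AAAAATCT, 57 bases before its start, as did 6.68% of promoters, whereas SIG1, SIG2, SIG6 and GUN1 held no match to any of the 5 motifs. The genes most like SIG3 were ATTPS6, of the trehalose phosphate synthase family, MURE, listed here as PAP11, and PRK, the Calvin cycle phosphoribulokinase. Their root mean square differences were 0.05, 0.06 and 0.07, where SIG3 varied by 0.22.

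SIG6 (AT2G36990, SIGF in the annotation, chr2:15537225-15540139, minus strand) had 87.9 and 82.2 CPM in msh1 TRAP against 69.7 and 66.1 CPM in WT TRAP. In Total it had 82.2 and 88.3 CPM in msh1 against 60.4 and 68.4 CPM in WT. All msh1 libraries lay above all WT libraries, and the fractions overlapped. The log2 fold change of msh1 against WT was 0.33 ± 0.14 in TRAP (SE, edgeR adjusted p = 0.0848) and 0.40 ± 0.14 in Total (SE, edgeR adjusted p = 0.151), so neither passed. Their 95% intervals ran from 0.02 to 0.64 and from 0.10 to 0.71. Total passed when only the 4 Total libraries were fitted (adjusted p = 0.0264) or without msh1 TRAP replicate 1 (0.43, adjusted p = 0.0471), and TRAP passed with the length trend removed (0.48, adjusted p = 0.0157).

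SIG1 (AT1G64860, SIGA in the annotation, chr1:24097736-24100970, plus strand) had 33.0 and 31.8 CPM in msh1 TRAP against 42.6 and 38.7 CPM in WT TRAP. In Total it had 33.4 and 33.8 CPM in msh1 against 40.5 and 39.5 CPM in WT. The msh1 libraries all lay below the WT libraries, at -0.33 ± 0.14 in TRAP (log2 ± SE, edgeR adjusted p = 0.0832) and -0.25 ± 0.14 in Total (SE, edgeR adjusted p = 0.408), and neither value passed. SIG2 (AT1G08540, chr1:2703295-2706860, plus strand) had 60.8 and 69.8 CPM in msh1 TRAP against 57.1 and 74.8 CPM in WT TRAP, which overlapped. In Total SIG2 had 89.8 and 88.4 CPM in msh1 against 76.0 and 68.3 CPM in WT, the highest group without overlap. SIG2 was at -0.02 in TRAP (interval -0.37 to 0.34) and 0.30 in Total (interval -0.04 to 0.65), and at -0.45 ± 0.16 for msh1 TRAP against msh1 Total (SE, edgeR adjusted p = 0.0599). That last value passed in 4 of 15 other settings, among them without msh1 TRAP replicate 2 (-0.56, adjusted p = 0.0477) and without WT TRAP replicate 1 (-0.45, adjusted p = 0.0387).

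Proteins that bind sigma factors were led by SIB1 and SIB2, small VQ-motif proteins first found through their binding to SIG1. SIB1 had 161 and 143 CPM in msh1 TRAP, against 55.2 and 50.6 CPM in WT TRAP and 49.2 and 60.4 CPM in msh1 Total. WT Total had 56.9 and 64.8 CPM, so msh1 TRAP stood apart from the other 3 groups. SIB1 rose by 1.52 ± 0.16 in msh1 TRAP against WT TRAP (log2 ± SE, edgeR adjusted p = 4.92e-05) and by 1.47 ± 0.16 against msh1 Total (SE, edgeR adjusted p = 0.000157). SIB2 rose by 1.66 and 1.27, but its exons lie wholly within a gene on the opposite strand, so its counts are uncertain. These were the 2 of 5 partner genes called. The sigma factor kinases CSK and cpCK2 were at 0.30 and -0.03 for msh1 TRAP against WT TRAP, and DG1, a PPR protein that binds SIG6, at -0.49, all uncalled. In the msh1 Total against WT Total and WT TRAP against WT Total comparisons edgeR called 0 of 5, with 0 at an unadjusted p under 0.05, and DESeq2 called 0. The calls of SIB1 and SIB2 held with any library left out.

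The PEP-associated proteins, which are nuclear-encoded parts of the polymerase that sigma factors direct, did not move as 1 group between msh1 and WT in TRAP. Of 14, 6 were higher and 5 lower in msh1 TRAP than in WT TRAP, with a median of 0.12. Those counts ran from 4 to 7 higher and from 2 to 6 lower with a library left out, with 2 lower without msh1 TRAP replicate 1 or WT TRAP replicate 2, 4 higher without msh1 TRAP replicate 2, and 3 lower without any 1 of the Total libraries. Removal of the length trend gave 3 higher and 2 lower. PAP1, also known as pTAC3, had 52.2 and 53.9 CPM in msh1 TRAP against 114 and 174 CPM in WT TRAP, at -1.44 ± 0.19 (log2 ± SE, edgeR adjusted p = 0.000139). PAP10, a thioredoxin, had 51.2 and 68.5 CPM in msh1 TRAP against 22.7 and 29.1 CPM in WT TRAP, at 1.21 ± 0.18 (SE, edgeR adjusted p = 0.00032). PAP12 was at 1.19, with a call that was lost when the length trend was removed (0.54, adjusted p = 0.0518), as were those of RPOTp and RPOTmp below. In Total all 14 values were above 0, with a median of 0.52, and 10 had an unadjusted edgeR p under 0.05. After adjustment 4 of the 14 were called higher, against 0.821% of all genes tested. These were the superoxide dismutase PAP9 at 0.82, the kinase-like FLN2 at 0.80, its relative PAP6 at 0.77 and the methyltransferase-like PAP7 at 0.62. That count was 0 without msh1 Total replicate 1 or either WT Total library, 1 without msh1 Total replicate 2, 8 without msh1 TRAP replicate 2 and 9 without msh1 TRAP replicate 1. WT TRAP exceeded WT Total in 3 of 14, PAP2, PAP5 and PAP1, a count that was 0 without either of the WT Total libraries and 1 without WT TRAP replicate 2. In msh1 TRAP against msh1 Total 6 were lower, led by PAP1 at -0.95 and FLN2 at -0.93, and the count was 2 without msh1 Total replicate 1 and 3 without msh1 Total replicate 2.

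Phage-type RNA polymerases transcribe organelle genes without sigma factors. RPOTp, the plastid enzyme of the family, had 45.9 and 33.2 CPM in msh1 TRAP against 65.0 and 81.8 CPM in WT TRAP, and in Total 66.3 and 73.4 CPM in msh1 against 48.6 and 54.6 CPM in WT. The groups did not overlap within either fraction, and the order of msh1 and WT was opposite in TRAP and Total. RPOTp was at -0.90 ± 0.18 in TRAP (log2 ± SE, edgeR adjusted p = 0.00214), 0.44 ± 0.18 in Total (SE, edgeR adjusted p = 0.231) and -1.33 ± 0.25 for the interaction (SE, edgeR adjusted p = 0.00656). RPOTmp, which serves plastids and mitochondria, was at -1.07 in TRAP and -1.21 for the interaction. With the length trend removed, RPOTp and RPOTmp were at -0.32 and -0.39 in TRAP (adjusted p = 0.125 and 0.124), and the interaction remained called for RPOTp at -0.81 (adjusted p = 0.0369). The RPOTmp interaction call was also lost without msh1 Total replicate 1, WT TRAP replicate 2 or either WT Total library (adjusted p = 0.078, 0.082, 0.076 and 0.0704).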

How the data were processed

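Floral stem mRNA was sequenced as 100-bp paired-end reads from TruSeq v2 libraries, per the labels' protocols, a preparation that does not mark strand. For every library the authors deposited whole-number counts of reads per locus, not normalized. The submitters' processing notes name TAIR10 and DESeq2; which aligner and counter were run was not given in the sources used here. In each library 5 summary lines without a gene stayed out of all sums; reads in no gene made up 38.5 to 41.68% of each library's entries and reads without a unique alignment 12.35 to 18.95%.

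Counts were filtered with filterByExpr, scaled by TMM and tested in 1 edgeR 4.0.16 fit (R 4.3.3) of 4 groups and 8 libraries, with 4 residual degrees of freedom. All p-values are two-sided and rest on the spread within groups of 2 libraries, pooled over the groups. Levels are TMM-normalised CPM, divided by the annotated transcript length in kilobases where genes are compared. The fit was also run on simulated counts, drawn for each gene with the same spread in every group. That run cannot show how groups of unlike spread affect the calls. Alternatives were DESeq2 1.42.0, other scalings, no filter, a replicate term, removal of a lowess length trend (span 0.3), fits of only the groups compared and each library left out. Gene coordinates and promoter sequences come from the TAIR10.1 RefSeq genome.

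The members and the gene lists (PEP-associated proteins, sigma factor partners, phage-type polymerases, retrograde signalling, PPR-SMR proteins, light regulators, morning and evening clock genes, and markers of seed, green tissue, fibre and xylem, epidermis and floral organs) were chosen with earlier results of these data known. Of 131 listed loci, 130 were in the tables and 1 was not analysed here. PAP2 stands in both the PEP-associated and the PPR-SMR list. Named genes are all members, up to 4 called genes with the largest log2 fold change per list and comparison, RPOTp, HO1, GUN4, CHLH, CCA1 and HY5 whatever their values, and for each called member the 3 genes with the most similar pattern; uncalled list genes named for contrast, namely PRR7, CSK, cpCK2 and DG1, were chosen after their values were seen. Replicate pairs differed by more than counting error. Chi-square per degree of freedom was 22 in msh1 TRAP, 11.6 in WT TRAP, 6.06 in msh1 Total and 8.33 in WT Total. No 2 libraries held identical values. Intervals and floors cover the spread or counting error only.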

Additional observations from a re-analysis of the deposited data

Results flagged for a closer look

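The msh1 effect differed between TRAP and Total by the interaction test of edgeR for 26 of the genes named here (adjusted p under 0.05). Among the members these were GUN1, with a log2 interaction of -1.68 and lower in msh1 TRAP, and SIG4 at -0.78. Among PEP-associated proteins the values were -1.70 for PAP1, -1.74 for PAP2, -1.19 for PAP3, -0.88 for PAP5, -0.66 for PAP7 and -1.18 for FLN2. The sigma factor partners SIB1 and SIB2 stood on the positive side, at 1.67 and 1.37. The phage-type polymerases RPOTp and RPOTmp were at -1.33 and -1.21. In the retrograde list 6 of 16 genes were called negative and 2 positive. Of the negative ones named here, CHLH was at -1.54, cpHSC70-1 at -1.67, cpHSC70-2 at -2.19 and CLPC1 at -2.02. GLK2 was at 0.82 and SAL1, a phosphatase whose substrate acts as a plastid signal, at 0.90. Among PPR-SMR genes they were -1.12 for SVR7, -1.61 for SOT1, -0.98 for EMB2217 and -1.02 for AT1G18900. The clock gene ELF4 was at 1.64, the green tissue genes RBCS1B and PSAD1 were at 0.85 and 1.21, and KEA1, one of the genes most like GUN1, was at -1.80. SIG5, which fell in msh1 in both fractions, was not among them. In this test 15.6% of all genes were called. KEA1 stood in no list and was not refitted; of the other 25 calls, 13 were lost with the length trend removed, those of GUN1 (-1.16, edgeR adjusted p = 0.092), PAP5, PAP7, SIB2, RPOTmp, CHLH, GLK2, SAL1, SVR7, EMB2217, AT1G18900, ELF4 and PSAD1, and 12 were kept. With each library left out in turn, 10 of the 25 held in all 8 fits, namely PAP1, PAP2, FLN2, SIB1, SIB2, RPOTp, cpHSC70-1, cpHSC70-2, CLPC1 and SOT1. The calls of EMB2217 and RBCS1B held in 1 of 8, that of GLK2 in 2, and those of SIG4, PAP5, PAP7 and AT1G18900 in 3. The marker lists other than green tissue were left out of the 26. In them the interaction was called negative in 3 of 7 fibre and xylem, 2 of 5 epidermis and 2 of 15 seed markers. It was called in 0 of 5 floral organ markers. The part that the cell makeup of the TRAP fraction has in all these values was not tested.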

How the results depend on the processing

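SIG5 was called lower in msh1 in TRAP and in Total, and GUN1 in TRAP, under all 15 alternatives; across the members' single-gene values 100 calls were kept and 33 lost, while 13 uncalled values gained a call, 350 stayed uncalled and 22 changed sign. For msh1 TRAP against msh1 Total, where 1 member was called, the count was 0 with DESeq2, the length trend removed or only the groups compared, 2 with upper-quartile factors and 3 with no filter, and 0 to 3 with a library left out. For WT TRAP against WT Total it was 1, against 2, with the length trend removed, and 0 to 2 with a library left out. For msh1 Total against WT Total it was 3, against 1, with only the groups compared (SIG4 and SIG6 added), and 1 to 2 with a library left out. For the interaction it was 1, against 2, with the length trend removed or the replicate block, and 0 to 3 with a library left out.

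Values that changed sign were uncalled and near 0. For msh1 TRAP against msh1 Total, SIG1 was at 0.10 with the length trend removed and -0.06 to 0.00 with a library left out, and SIG6 at 0.03 with DESeq2, 0.03 with RLE factors, 0.13 with the length trend removed and -0.06 to 0.05 with a library left out. For msh1 TRAP against WT TRAP, SIG2 was at 0.15 with the length trend removed and -0.19 to 0.22 with a library left out. For WT TRAP against WT Total the leave-out ranges were -0.05 to 0.15 for SIG1, -0.28 to 0.05 for SIG2 and -0.01 to 0.17 for SIG6. For the interaction, SIG1, SIG5 and SIG6 were at 0.10, 0.07 and 0.05 with the length trend removed, and SIG5 and SIG6 ran from -0.40 to 0.29 and from -0.17 to 0.00 with a library left out. The causes were not tested.

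Over all genes the number called was 5553 for msh1 TRAP against msh1 Total (3548 with only the groups compared, 2218 to 7114 with a library left out), 1076 for WT TRAP against WT Total (2011 with no filter, 1871 with only the groups compared, 167 to 2310 with a library left out) and 824 for msh1 Total against WT Total (1770, 2708 and 219 to 1650). It was 3312 for the interaction (1585 with the length trend removed, 1009 to 5575 with a library left out) and 8818 for msh1 TRAP against WT TRAP (5835 to 9517 with a library left out).

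Deviations of same-numbered libraries correlated at -0.20, -0.24, 0.08 and -0.02 over 21202 genes. With 2 libraries per group, these values cannot show whether same-numbered samples shared plants. With the replicate block the members called were 1 for msh1 TRAP against msh1 Total, 2 for WT TRAP against WT Total, 2 for msh1 TRAP against WT TRAP (SIG3 lost), 1 for msh1 Total against WT Total and 1 for the interaction (SIG4 lost). Of 220 calls of listed genes over the 5 comparisons, 17 were lost with the block, among them PAP7 (adjusted p = 0.0576) and AG (0.0589) for msh1 Total against WT Total, CHLH (0.0534) for WT TRAP against WT Total, and PAP7 (0.0726), GLK2 (0.0524) and EMB2217 (0.0591) for the interaction.

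With 2 libraries per group, a call can rest on 1 library, and where a group kept 1 library it was assumed to vary like the others. SIG5 had 87 and 90 counts in msh1 TRAP, the fewest of any member there.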
